A study of Sus scrofa with 8 samples.

Results

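FOS and EGR2 were represented by 5 of the 43603 probes on a porcine oligonucleotide array, and by 2 of the 4560 genes that the array's annotation names. The probes were chosen by gene symbol: 4 carry FOS (A_72_P596714, A_72_P205307, A_72_P670145 and A_72_P441284) and 1 carries EGR2 (A_72_P077816). The pair of genes was singled out because of a high level in colostral over blood CD8 single positive cells, so their values in that comparison are given as a description with no test. All 5 probes were among the 30522 that passed the filter on dim probes, a mean over the 8 samples above the 30th percentile.

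The study set T cells of colostrum, the first milk, against T cells of blood from the same animals, 2 sows of a Large White x Landrace cross. The cells were stained and sorted, and no culture or treatment is named. The 4 groups, each with 1 sample from each sow, were colostral double positive (DP) cells, sorted as CD3+ CD4+ CD8+, colostral CD8 single positive (SP) cells, sorted as CD3+ CD4- CD8+, blood DP cells and blood CD8 SP cells, sorted by the same markers. Colostral cDNA was labelled with Alexa Fluor 3 in every sample and blood cDNA with Alexa Fluor 5 in every sample, so a dye effect and a difference between colostrum and blood cannot be told apart. No age, stage of lactation or health status of the sows is given in the labels.

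FOS and EGR2 are immediate early genes, whose transcription starts within minutes of a stimulus and needs no new protein. FOS protein pairs with JUN proteins to form the transcription factor AP-1, which binds beside NFAT at cytokine gene promoters in T cells. EGR2 is a zinc finger transcription factor that T cell receptor signalling induces through calcineurin and NFAT, and in mouse T cells it is known for its part in anergy and in restraint of activation. FOS transcripts are also known to be short-lived and to appear when cells are handled, warmed or sorted.

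The channels differed between colostrum and blood, which carry different dyes, more than between the sorted populations. Median intensity was 118 to 133 units in the 4 colostral channels and 27 to 34 units in the 4 blood channels, and the 153 negative-control spots had medians of 68 to 81 units in colostrum and 1 to 8 units in blood. Levels below are log2 intensities after quantile normalization with a floor at 5.34, the level of the negative controls, and values at the floor have no order. A probe counted as above background where it exceeded the 95th percentile of its own channel's negative controls, a level of 6.83 to 6.96 in colostrum and 6.78 to 7.05 in blood. The share of probes above background was 31.1 to 34.7% in colostrum and 28.9 to 36.1% in blood. Of the 7 genes of the sort and the T cell receptor, CD3D, CD3E, CD3G, CD247 and CD8A were above background in all 8 samples, and CD4 was in all 4 DP samples, in 1 of the 2 colostral CD8 SP samples and in no blood CD8 SP sample. CD4 averaged 7.06 in colostral DP cells against 9.06 in blood DP cells, and CD247, a signalling chain of the receptor, was 9.40 and 8.49 against 10.86 and 10.54. Thus 2 of the 7 were at least 2-fold lower in colostral DP cells in both sows, against 4.14% of all named genes. CD3G was 10.54 and 8.05 in colostral DP cells against 10.74 and 11.32 in blood DP cells. CD8B, a chain of the CD8 heterodimer, was above background in all 4 CD8 SP samples and in no DP sample. The number of arrays, 2 a group, limits the precision of every value, and fewer cells of a type and less RNA per cell cannot be told apart in sorted pools.

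FOS was read above background by all 4 of its probes in all 8 samples. On A_72_P596714, its brightest probe, the level was 12.57 in sow 1 and 13.31 in sow 2 in colostral DP cells, 13.25 and 13.47 in colostral CD8 SP cells, 11.04 and 12.14 in blood DP cells, and 10.44 and 10.71 in blood CD8 SP cells. All 4 colostral samples were higher than all 4 blood samples, and blood DP samples were higher than blood CD8 SP samples. Before normalization the same probe gave 3712 and 8705 units in colostral DP cells, 7087 and 9285 units in colostral CD8 SP cells, 2815 and 5629 units in blood DP cells, and 1454 and 1588 units in blood CD8 SP cells. In each channel it was among the brightest probes, with 96.2 to 99.3% of probes below it.

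The FOS probe A_72_P205307 read 11.95 and 13.08 in colostral DP cells, 13.02 and 13.17 in colostral CD8 SP cells, 10.12 and 11.46 in blood DP cells, and 9.95 and 10.15 in blood CD8 SP cells. A_72_P670145 read 10.57 and 11.47 in colostral DP cells, 11.33 and 11.51 in colostral CD8 SP cells, 8.93 and 10.39 in blood DP cells, and 8.95 and 9.11 in blood CD8 SP cells. On both of these FOS probes the order of the group means was the one seen on A_72_P596714, with colostral CD8 SP cells highest, then colostral DP, blood DP and blood CD8 SP cells. Neighbours in that order overlapped within each source, colostral DP with colostral CD8 SP cells and blood DP with blood CD8 SP cells.

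The remaining FOS probe, A_72_P441284, read 10.35 and 11.08 in colostral DP cells, 9.83 and 10.91 in colostral CD8 SP cells, 9.90 and 9.39 in blood DP cells, and 7.79 and 8.69 in blood CD8 SP cells. Its highest mean was in colostral DP cells, whose samples overlapped those of colostral CD8 SP cells. In blood DP cells sow 1 was the higher sow on this probe and sow 2 on the other FOS probes. The annotation ties A_72_P441284 to a RefSeq mRNA and the other FOS probes to 1 cDNA entry. Over the 8 samples, with each profile centred on its own mean, the root mean square distance in log2 level was 0.195 to 0.274 among the FOS probes of the cDNA entry and 0.618 to 0.793 between them and A_72_P441284. The 4 probes share samples and a target, and are not replicates of a group.

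EGR2 was above background in 3 of the 8 samples. Its probe read 5.34, the floor, and 5.75 in colostral DP cells, 8.85 and 8.03 in colostral CD8 SP cells, 5.34 and 5.34 in blood DP cells, and 6.06 and 7.16 in blood CD8 SP cells. Both colostral CD8 SP samples were above background, 1 of the 2 blood CD8 SP samples was, and no DP sample was in either source. In intensity units EGR2 gave 61 and 96 in colostral DP cells, 445 and 306 in colostral CD8 SP cells, 4 and -8 in blood DP cells, and 20 and 88 in blood CD8 SP cells. The order of its means was colostral CD8 SP, blood CD8 SP, colostral DP and blood DP cells, and between the DP groups no order can be read because neither was above background. The EGR2 profile lay 1.30 to 1.59 from the FOS profiles in root mean square log2 level.

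**Figure D1:**
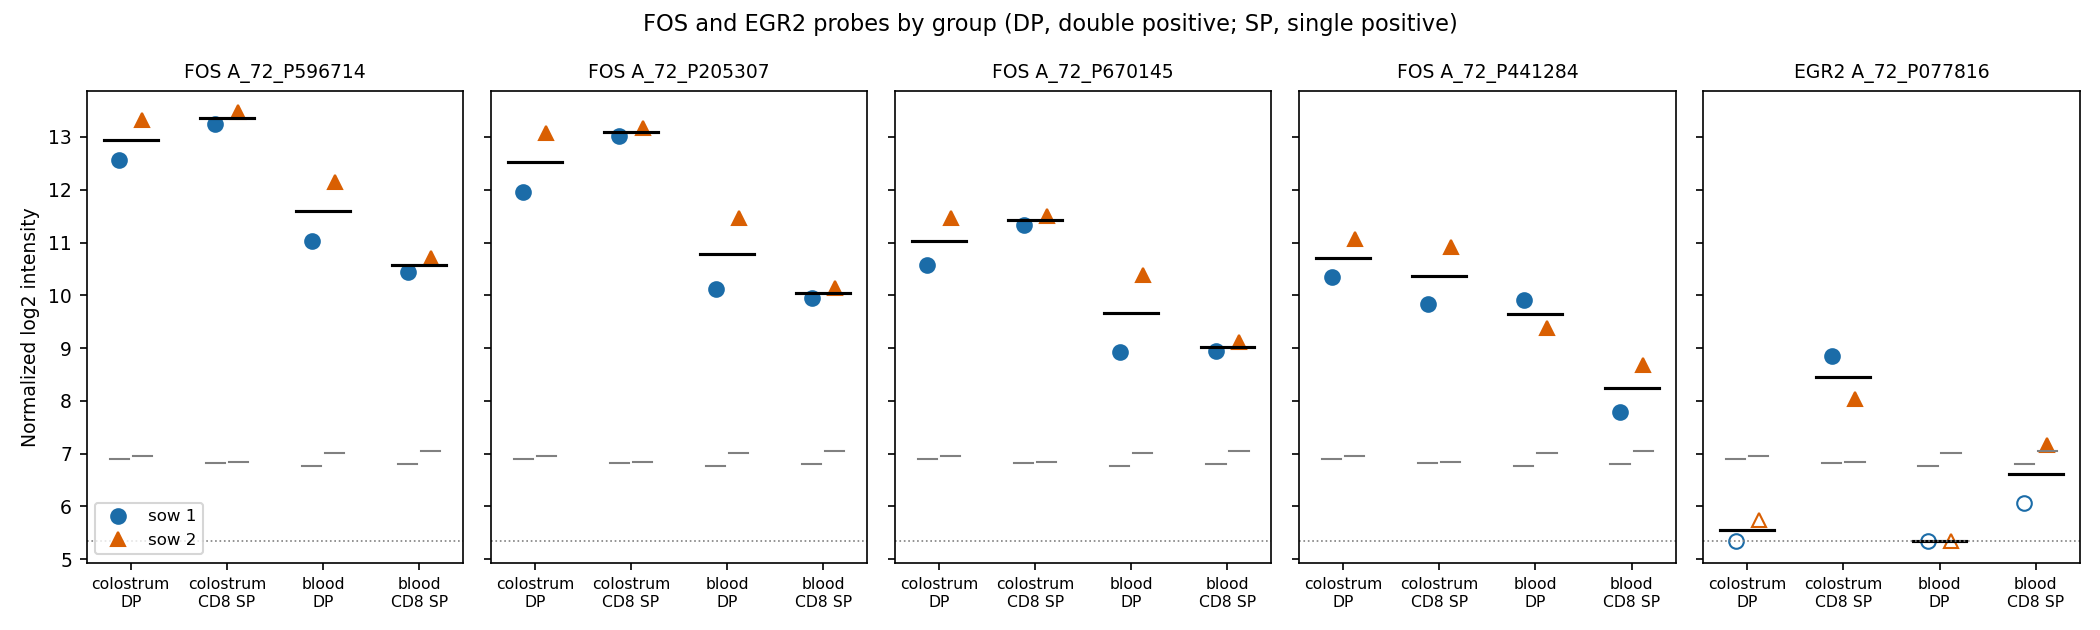
Normalized log2 intensity of each FOS and EGR2 probe (vertical axis) in the 4 groups of 2 samples; circles are sow 1, triangles sow 2, open symbols are not above background, black bars are group means, short grey bars mark each sample's background threshold and the dotted line the floor. FOS was above background in all 8 samples and higher in colostrum than in blood on every probe under this normalization (in DP cells not under 75th percentile scaling), and EGR2 was above background in both colostral CD8 SP samples and 1 blood CD8 SP sample.

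The first comparison asked how FOS and EGR2 differed between colostral and blood DP cells. FOS was higher in colostrum on every probe under quantile normalization, though not under the 75th percentile scaling given below: A_72_P596714 averaged 12.94 ± 0.53 in colostral DP cells and 11.59 ± 0.78 in blood DP cells (SD, n = 2 each), a log2 difference of 1.35 ± 0.56 (SE) with 1.53 within sow 1 and 1.17 within sow 2. A_72_P205307 differed by 1.73 ± 0.61, A_72_P670145 by 1.36 ± 0.61 and A_72_P441284 by 1.07 ± 0.60 on the log2 scale. Samples of the 2 sources did not overlap on any of the 4 FOS probes, against 16.6% of all probes that did not overlap and were higher in colostrum. On 3 of the 4 FOS probes the difference was at least 2-fold in both sows, against 2.73% of all probes, and A_72_P441284 missed with 0.44 in sow 1 and 1.69 in sow 2.

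None of the FOS differences in DP cells passed limma's test after Benjamini-Hochberg adjustment over all 30522 probes, where adjusted p was 0.743 for A_72_P205307, 0.77 for A_72_P596714, 0.781 for A_72_P670145 and 0.834 for A_72_P441284. The 95% interval of A_72_P596714 reached from 0.11 to 2.60 before any adjustment for the number of probes. The direction of FOS in DP cells depended on the scaling: with each channel scaled to its 75th percentile in place of quantile normalization, A_72_P596714 differed by -0.60, A_72_P205307 by -0.20, A_72_P670145 by -0.32 and A_72_P441284 by -0.57. That scaling moved the median of all probes to 0.26 in DP cells and to 0.23 in CD8 SP cells, and relative to that median A_72_P596714 lay at -0.85 in DP cells and at 0.97 in CD8 SP cells. EGR2 was not above background in any DP sample, so colostral and blood DP cells cannot be compared for it and no difference is given.

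In CD8 SP cells, the comparison that led to the choice of these genes, FOS averaged 13.36 ± 0.16 in colostrum and 10.58 ± 0.19 in blood on A_72_P596714 (SD, n = 2 each), a log2 difference of 2.78 ± 0.56 or 6.88-fold, with 2.81 within sow 1 and 2.76 within sow 2. The other FOS probes differed by 3.05 ± 0.61 (A_72_P205307), 2.39 ± 0.61 (A_72_P670145) and 2.13 ± 0.60 (A_72_P441284). The 4 of 4 FOS probes that were at least 2-fold higher in both sows stand beside 2.65% of all probes, and nothing is read from that count because the genes were chosen on it. EGR2 averaged 8.44 ± 0.58 in colostral and 6.61 ± 0.78 in blood CD8 SP cells, a log2 difference of 1.83 ± 0.57. Under quantile normalization its samples did not overlap, as on the FOS probes, and 16.1% of all probes were higher in colostral CD8 SP cells with no overlap. The sows were unequal for EGR2, with 2.79 in sow 1, whose blood sample was not above background, and 0.87 in sow 2. Under 75th percentile scaling the FOS difference on A_72_P596714 was 1.20 and that of EGR2 was 1.92, both still higher in colostrum.

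The colostrum-blood difference of FOS was smaller in DP than in CD8 SP cells on every probe. The DP difference minus the CD8 SP difference was -1.43 on A_72_P596714, with -1.27 in sow 1 and -1.59 in sow 2, -1.32 on A_72_P205307, -1.07 on A_72_P441284 and -1.03 on A_72_P670145. Under the 7 other scalings and backgrounds it was also below 0 in both sows on each FOS probe, between -1.80 and -1.43 for A_72_P596714. A dye effect of equal size in both populations cancels in this difference, but its CD8 SP term was used to choose the genes, so no test is given. For EGR2 no such value is given, since its DP samples were not above background.

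**Figure D2:**
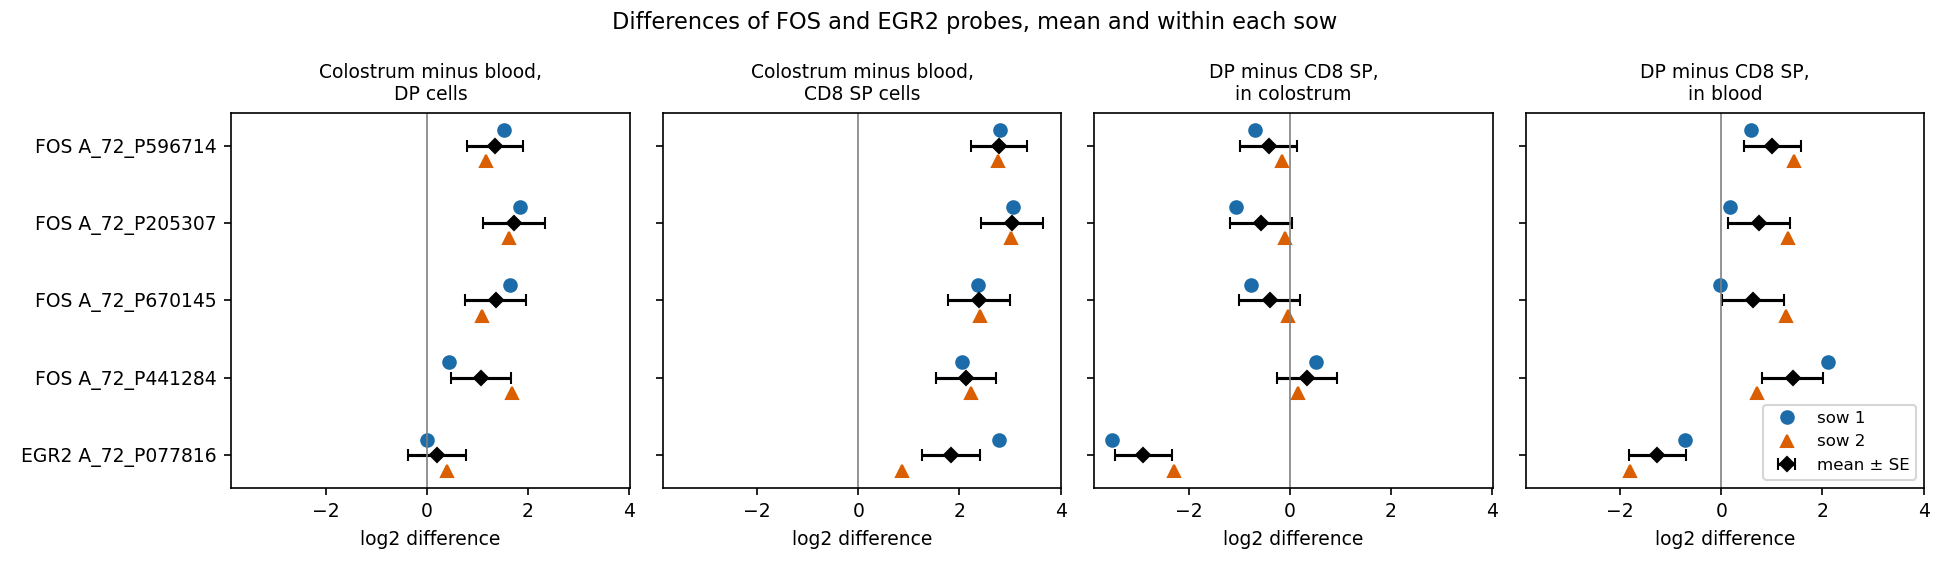
Log2 difference (horizontal axis) of each FOS and EGR2 probe in 4 comparisons; diamonds are the difference of group means with the SE of the fit, circles and triangles the difference within sow 1 and sow 2. Under quantile normalization, though in DP cells not under 75th percentile scaling, FOS lay above 0 in both colostrum-blood comparisons, and EGR2 lay furthest from 0 in the comparison of DP with CD8 SP cells in colostrum, at -2.90, with DP samples not above background.

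Within colostrum, where both populations carry the same dye, EGR2 was lower in DP than in CD8 SP cells in both sows. It averaged 5.55 ± 0.29 in colostral DP cells and 8.44 ± 0.58 in colostral CD8 SP cells (SD, n = 2 each), a log2 difference of -2.90 ± 0.57 with a 95% interval of -4.15 to -1.64, and -3.51 within sow 1 and -2.28 within sow 2. Because no DP sample was above background, the fold was bounded: EGR2 was at least 2.86-fold lower in DP cells, taking each DP level at its channel's background threshold, the highest it could be and still count as not above background. Of all probes, 16.3% were lower in colostral DP cells with no overlap and 3.28% met the 2-fold rule in that direction. The difference did not pass limma's test over all probes (adjusted p = 0.669, unadjusted p = 0.000428), and the colostral CD8 SP samples that enter it also entered the choice of EGR2, so that p is not independent of the choice.

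FOS levels of the colostral populations overlapped on each probe. The log2 difference of DP minus CD8 SP cells was -0.42 ± 0.56 on A_72_P596714 with a 95% interval of -1.66 to 0.82, -0.58 ± 0.61 on A_72_P205307, -0.40 ± 0.61 on A_72_P670145 and 0.34 ± 0.60 on A_72_P441284. Adjusted p was 0.936 to 0.964 over the 4 FOS probes in limma's test. The colostral CD8 SP samples that enter these values also entered the choice of FOS, so the p-values and intervals are not independent of that choice. On A_72_P596714 the interval still allows FOS to be more than 2-fold lower in colostral DP cells.

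Within blood FOS was higher in DP cells on average. A_72_P596714 averaged 11.59 ± 0.78 in blood DP cells and 10.58 ± 0.19 in blood CD8 SP cells, a log2 difference of 1.01 ± 0.56 with 0.59 in sow 1 and 1.43 in sow 2, and A_72_P441284 differed by 1.41 ± 0.60 with 2.12 and 0.70. On these FOS probes the populations did not overlap, as for 16.1% of all probes in that direction. A_72_P205307 differed by 0.74 ± 0.61 and A_72_P670145 by 0.63 ± 0.61, and on both the populations overlapped. No FOS probe was at least 2-fold higher in both sows, a rule met by 2.51% of all probes, and adjusted p in limma's test was 0.972 to 1. EGR2 differed by -1.27 ± 0.57 between blood DP and CD8 SP cells (adjusted p = 0.972), with both DP samples at the floor and below both CD8 SP samples, as for 16.6% of all probes, and 1 of 2 CD8 SP samples above background, so no fold is given. The blood CD8 SP samples that enter these values also entered the choice of both genes.

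Limma called none of the 30522 probes at an adjusted p of 0.05 in any of the 4 comparisons. At an unadjusted p of 0.05 it had 1930 probes (6.32%) for colostrum against blood in DP cells, 1663 (5.45%) in CD8 SP cells, 2175 (7.13%) for DP against CD8 SP cells in colostrum and 1562 (5.12%) in blood. An adjusted p above the threshold for FOS or EGR2 does not show that the groups were alike.

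**Figure D3:**
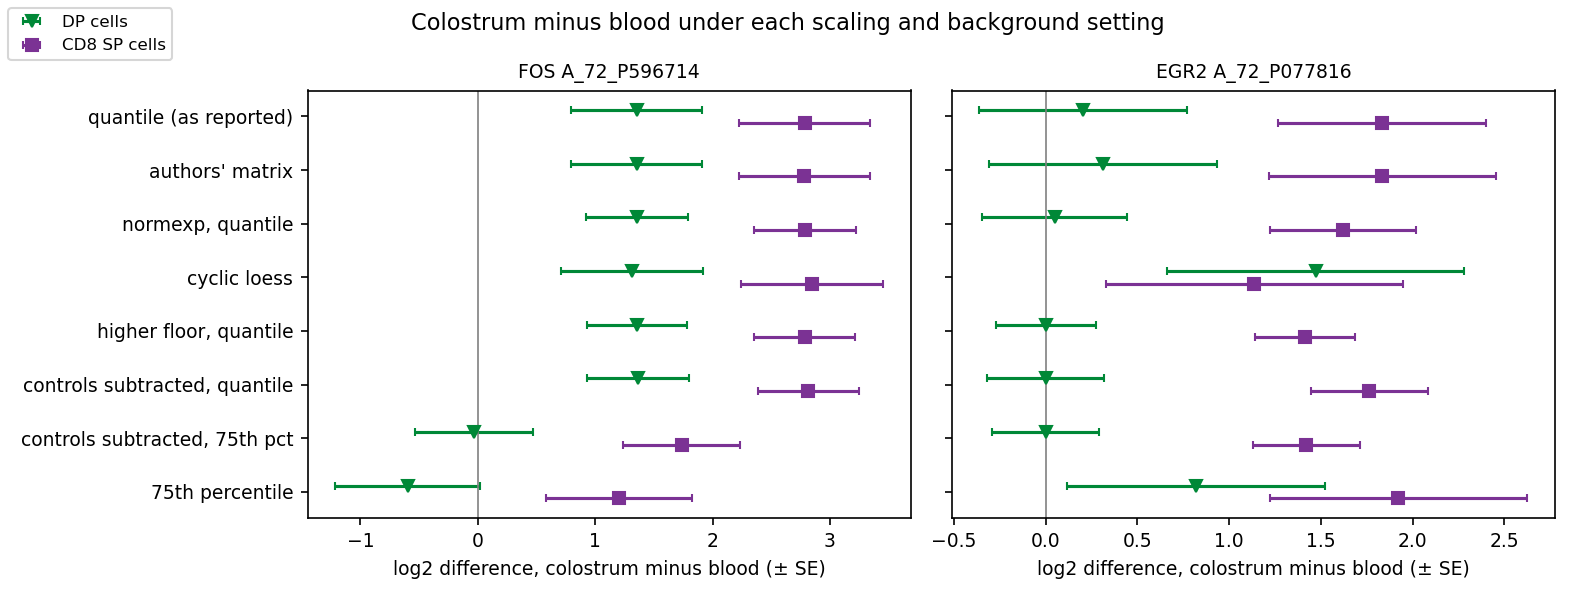
Colostrum minus blood on the log2 scale (horizontal axis, with the SE of each fit) for the brightest FOS probe and the EGR2 probe under 8 settings of background and scaling; green triangles are DP cells and purple squares CD8 SP cells. FOS in DP cells was near 1.35 under quantile normalization and at -0.60 under 75th percentile scaling, and FOS and EGR2 in CD8 SP cells stayed above 0. EGR2 was not above background in DP cells, and nothing is read from its triangles.

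Heat shock genes, whose products fold damaged proteins and which cell handling can induce, were higher in colostral samples, as FOS was, under quantile normalization. Of 8 genes on that list 6 had a named probe, and their summed normalized intensity was 13550 and 32300 in colostral DP cells, 22730 and 37180 in colostral CD8 SP cells, 5666 and 7166 in blood DP cells, and 6464 and 5616 in blood CD8 SP cells. The colostral DP sample of sow 1 had the lowest sum of the colostral samples and the lowest FOS level of them on the probes of the cDNA entry. At least 2-fold higher in colostrum in both sows were 5 of the 6 in DP cells, against 2.28% of all named genes. In CD8 SP cells 6 of the 6 were, against 2.85%. The median difference of the list was 1.57 in DP cells and 2.08 in CD8 SP cells under quantile normalization. Under 75th percentile scaling it was -0.12 and 0.64. The part of cell handling in the FOS result was not tested.

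Markers of other cells were compared for EGR2 and FOS in the same way. The NK cell list had 3 of its 4 genes named and a summed normalized intensity of 802 and 394 in colostral DP cells, 2676 and 1851 in colostral CD8 SP cells, 257 and 408 in blood DP cells, and 1262 and 1170 in blood CD8 SP cells, and its defining gene NCR1 was not above background. This list was highest in colostral CD8 SP cells, as EGR2 was, and its part in the EGR2 result was not tested. The monocyte list, with 3 of 4 genes named, summed to 546 and 232 in colostral DP cells, 286 and 293 in colostral CD8 SP cells, 244 and 312 in blood DP cells, and 418 and 448 in blood CD8 SP cells. In CD8 SP cells this sum was lower in colostrum, with 0 and 1 of the 3 genes above background, against 2 in each blood sample. In colostral CD8 SP cells LYZ was not above background and at least 1.69-fold lower than in blood. CD14 was also lower there on average. CD163 was not above background in either colostral CD8 SP sample, and in blood CD8 SP cells only in sow 2, so no difference is read for it. The neutrophil list, with 4 of 4 genes named, summed to 333 to 528 in colostrum and 265 to 1649 in blood, the highest values being blood samples of sow 2. Of its 4 genes, 1 to 3 were above background in a colostral sample and 0 to 2 in a blood sample. The milk epithelium list, with 7 of 7 genes named, summed to 460 to 3272 in colostrum, highest in the CD8 SP sample of sow 2, and to 518 to 956 in blood. Of its 7 genes, 0 to 3 were above background in a colostral sample and 1 to 4 in a blood sample. The B cell list had 1 of 4 genes named, CD79A, at 96.4 and 716 in colostral DP cells, 197 and 434 in colostral CD8 SP cells, 79.1 and 84.6 in blood DP cells, and 451 and 372 in blood CD8 SP cells. It was at least 3.45-fold lower in blood DP than in blood CD8 SP cells, the comparison in which EGR2 was also lower. The red cell and platelet list, with 2 of 5 genes named, summed to 247 to 441 in colostrum and 586 to 790 in blood with no overlap, and its one gene above background, GP9, differed by -1.35 ± 0.51 in DP cells and -1.17 ± 0.51 in CD8 SP cells. The part of these cells in the FOS and EGR2 results was not tested.

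FOS has JUN as its main partner in AP-1, and of 13 AP-1 genes listed JUN alone was named by the annotation used here, which names no probe for FOSB, JUNB or EGR1. JUN read 9.95 and 11.43 in colostral DP cells, 10.89 and 11.68 in colostral CD8 SP cells, 9.05 and 10.46 in blood DP cells, and 10.33 and 10.72 in blood CD8 SP cells. Its colostrum-blood difference was 0.94 ± 0.68 in DP cells and 0.76 ± 0.68 in CD8 SP cells under quantile normalization, and -0.69 and -0.65 under 75th percentile scaling. EGR3, which shares with EGR2 its induction by NFAT, differed by -0.69 ± 0.63 in DP cells and by 0.08 ± 0.63 in CD8 SP cells, with opposite signs in the sows in CD8 SP cells. Where EGR2 was lower in colostral DP than in CD8 SP cells, EGR3 differed by -1.08 ± 0.63, with -0.22 in sow 1 and -1.93 in sow 2 (adjusted p = 0.796 in limma's test).

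Of 100 genes on 7 lists of AP-1 partners, EGR relatives, other immediate early genes, inputs, feedback regulators, EGR2-linked genes and cytokine targets, 40 had a named probe, 39 of these entered the fit, and none passed limma's test between colostrum and blood in either population (adjusted p of at least 0.714 in DP cells and 0.895 in CD8 SP cells). In DP cells 3 of the 40 were at least 2-fold higher in both sows and 1 lower, against 2.28% and 4.14% of all named genes, and the median difference was -0.02 against 0 for all probes. In CD8 SP cells 4 were higher and 3 lower, against 2.85% and 3.16% of named genes, and the median difference was 0.22 against -0.01 for all probes. The 11 other immediate early genes with a probe, among them NR4A2, NR4A3 and CD69, held no gene at least 2-fold different in the same direction in both sows in either population. KLF4, a zinc finger factor, had the largest difference on this list, -1.36 in DP cells and at least 4.02-fold lower in colostral CD8 SP cells, where it was not above background. In DP cells the sows had opposite signs, with 8.23 and 9.17 in colostrum against 11.04 and 9.07 in blood. In blood CD8 SP cells it read 10.49 and 7.18, so the bound on the mean rests mostly on sow 1. Of its 6 other probes 5 went the other way in CD8 SP cells.

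Among the inputs to FOS, CREB1, which binds the FOS promoter's cAMP response element, differed by 0.99 ± 0.49 in DP cells and 1.26 ± 0.49 in CD8 SP cells, and it was at least 2-fold higher in both sows in CD8 SP cells. MKL1, a coactivator of serum response factor, differed by -1.17 ± 0.63 in CD8 SP cells and was above background in 1 of the 2 colostral samples. MAPK14, the p38 kinase, had the largest difference in DP cells at 1.09 ± 0.65 with 0.00 in sow 1 and 2.18 in sow 2, whose blood sample was not above background. Other MAPK14 probes differed by 0.10 and 0.32 in DP cells, each with opposite signs in the sows. The feedback list held 1 named gene, NFKBIA, the inhibitor of NF-kB, with 0.57 ± 0.53 in DP cells and 1.18 ± 0.53 in CD8 SP cells, and -1.48 and -0.50 under 75th percentile scaling. Other NFKBIA probes differed by 0.75 and 0.50 in DP cells. In CD8 SP cells they differed by -0.39 and 0.52, each with opposite signs in the sows.

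Of the EGR2-linked genes, DGKA, the diacylglycerol kinase whose transcription EGR2 drives in mouse T cells, differed by 1.74 ± 0.53 in DP cells, where EGR2 was below background, and 1.45 ± 0.53 in CD8 SP cells. Under 75th percentile scaling DGKA differed by -0.14 in DP cells and -0.12 in CD8 SP cells. CTLA4, an inhibitory receptor, was at least 2.20-fold higher in colostral than in blood DP cells, where it was not above background, and in CD8 SP cells it was above background in 1 of 4 samples. CDKN1B, a cell cycle inhibitor, differed by -1.04 ± 0.51 in DP cells and -1.78 ± 0.51 in CD8 SP cells. Of the cytokine targets of AP-1 and NFAT, IFNG differed by 1.98 ± 0.68 in DP cells, at least 1.47-fold higher with 1 of 2 colostral and no blood sample above background, and by 2.15 ± 0.68 in CD8 SP cells, with 1 of 2 blood samples above background, and CD40LG, the helper ligand, by -1.85 ± 0.60 in DP cells and -1.41 ± 0.60 in CD8 SP cells. The signs for CTLA4, CDKN1B, IFNG and CD40LG were the same under the 7 other scalings and backgrounds.

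Between the sorted populations, the listed genes past the same size are named after their values were seen. In colostral DP against colostral CD8 SP cells 4 of the 40 genes were at least 2-fold higher in both sows, against 2.37% of named genes: CD40LG, KLF4, CTLA4 and IL10. CD40LG differed by 2.16 ± 0.60. KLF4 and IL10 were not above background in colostral CD8 SP cells, and were at least 3.65-fold and at least 1.39-fold higher in DP cells, IL10 with 1 of 2 DP samples above background. CTLA4 was above background in 1 of 2 colostral CD8 SP samples and in both DP samples. The 6 other KLF4 probes differed by -0.78 to 1.67 and the other IL10 probe was not above background in any sample. NFIL3, a leucine zipper repressor of the immediate early list, was the 1 gene lower, by -1.47 ± 0.51, against 3.14% of named genes. In blood DP against blood CD8 SP cells CD40LG (2.61 ± 0.60), SOCS3 (1.72 ± 0.78) and CDKN1A (1.13 ± 0.47) were higher, against 2.32%, and MKL1, not above background in blood DP cells, was at least 1.95-fold lower, against 1.84%. SOCS3 was above background in 1 of 2 blood CD8 SP samples. None passed limma's test over all probes, with adjusted p of at least 0.669 in colostrum and 0.972 in blood.

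**Figure D4:**
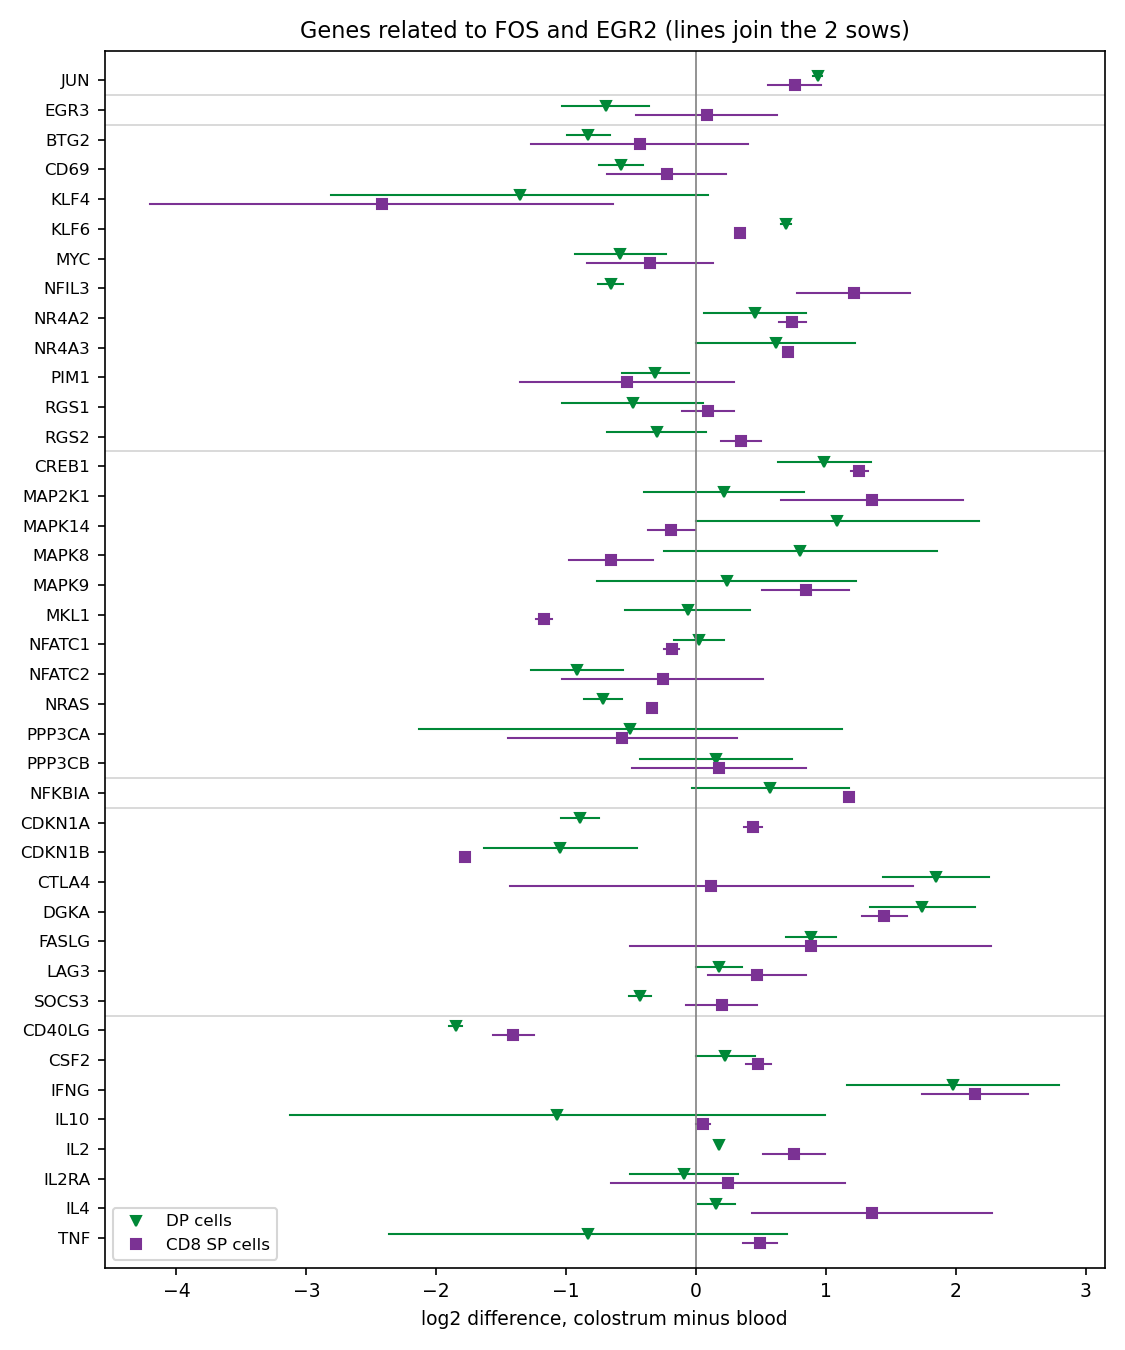
Colostrum minus blood on the log2 scale (horizontal axis) for the 40 listed genes with a named probe, grouped by list between grey lines; green triangles are DP cells, purple squares CD8 SP cells, and each line joins the values of the 2 sows. JUN lay at 0.94 in DP cells and 0.76 in CD8 SP cells under quantile normalization, below 0 under 75th percentile scaling, and the other immediate early genes lay on either side of 0.

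The genes whose centred profiles lay nearest to that of FOS over the 8 samples, among 1936 named genes, were H2AFZ, a histone variant (0.455 root mean square log2 level), SAT1, a polyamine acetyltransferase (0.456), RASA2, a regulator of Ras (0.457), DYNLL1, a dynein light chain (0.485), and BRD2, a bromodomain protein (0.487). The median distance from FOS was 1.35. Nearest to EGR2, among 1937 genes, were PPEF1, a protein phosphatase (0.53), SLC4A11, a membrane transporter (0.6), HBEGF, a growth factor (0.65), JARID2, a Polycomb cofactor (0.668), and XCL1, a chemokine of CD8 T and NK cells (0.677), against a median of 1.41. These distances are over the same 8 channels, share their dye and scaling, and carry no test. EGR2 itself was above background in fewer than the 4 of 8 samples asked of its neighbours. Its distances therefore rest in part on values at or near the floor.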

How the data were processed

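Intensities were deposited for each sample, 1 whole-number value for each of 45220 spots, and per the labels' protocols they come from 10 ng of total RNA amplified as cDNA and labelled with a dye. Which scanner and background correction were used is not given in the sources used here. Log2 values of 43603 probes are in the authors' deposited matrix, and 99.2% of 338864 of them lay within 0.1 of the values rebuilt here, so it served as an alternative. Titles of DP samples name both populations, so their group was taken from the design text and the sort.

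Spots of 1 probe were averaged (50 probes), channels were quantile normalized, values were floored at 40.6 units, the normalized median of the negative controls, and log2 was taken, which left 14.1% of the values of tested probes at the floor. Probes were named from the array's annotation, which gave 1 symbol to 10278 probes and none to 33325, with 446 symbols updated through RefSeq. A gene on a list is shown by its brightest probe. limma 3.58.1 in R 4.3.3 fitted 4 group means over all 8 samples (4 residual degrees of freedom), with p-values adjusted by Benjamini-Hochberg over all tested probes. On simulated data for the DP comparison (30522 probes, 200 changed) the fit recovered 48.4% of changes of 4 and 1.2% of changes of 2 on the log2 scale. The members and all lists were chosen with earlier results of these data known. Named from each list were up to 3 genes with the largest difference among those at least 2-fold in both sows for each colostrum-blood comparison, or the largest 1, and JUN, FOSB, JUNB, EGR1 and EGR3. Probes nearest in profile had to be above background in at least 4 of 8 samples.

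Replicates 1 and 2 were taken as the sows, so same-numbered samples were paired by animal, and all within-sow values rest on that pairing. Deviations from the group means correlated across probes at 0.284 between colostral and blood DP cells and 0.313 between colostral and blood CD8 SP cells, and at -0.005 to 0.041 for other group pairs, those of 1 source included. Whether the colostral and blood samples of 1 sow and population shared an array, 1 in each dye, is not stated in the labels, so a shared sow and a shared array cannot be told apart in within-sow colostrum-blood values. Alternatives were another scaling (75th percentile, cyclic loess), background (negative controls subtracted, normexp with offset 50), floor, filter and probe choice, the authors' matrix, the sow as a block, a random block for each sow's samples of 1 population, and each sample left out.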

Additional observations from a re-analysis of the deposited data

How the results depend on the processing

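In CD8 SP cells the mean differences of FOS A_72_P596714 (1.20 to 2.85) and EGR2 (1.14 to 1.92) kept their direction under 12 alternatives and the other FOS probes under the 11 run for them, where FOS was 1.20 under 75th percentile scaling and 1.74 with negative controls subtracted as well, and EGR2 was 1.14 under cyclic loess. Under cyclic loess EGR2 read 7.71 and 7.05 in colostral and 5.11 and 7.37 in blood CD8 SP cells, so sow 2 was lower in colostrum and the samples overlapped. Both subtracted settings used a floor at the 95th percentile of the negative controls. Colostrum minus blood in DP cells turned under 75th percentile scaling to -0.60 for FOS A_72_P596714 (adjusted p = 0.61), -0.20 for A_72_P205307, -0.57 for A_72_P441284 and -0.32 for A_72_P670145, and with controls subtracted as well to -0.031 for A_72_P596714 and -0.067 for A_72_P441284. The cause was not tested. For DP against CD8 SP cells, EGR2 ranged over the 12 alternatives from -3.12 to -1.55 in colostrum and from -2.44 to -0.13 in blood. The -0.13 came with the floor at the 95th percentile of the negative controls. Leaving out 1 sample at a time gave, for FOS A_72_P596714, 0.80 to 1.91 in DP cells, 2.65 to 2.92 in CD8 SP cells, -0.79 to -0.05 for DP against CD8 SP cells in colostrum and 0.46 to 1.56 in blood, and for EGR2 1.28 to 2.38 in CD8 SP cells, -3.31 to -2.49 in colostrum and -1.82 to -0.72 in blood. A_72_P441284 in colostrum turned to -0.02 without the colostral DP sample of sow 2 and to -0.20 without the colostral CD8 SP sample of sow 1, in a range up to 0.88. A_72_P670145 turned to 0.053 in colostrum without the colostral DP sample of sow 1 (range from -0.85) and to -0.10 in blood without the blood DP sample of sow 2 (range up to 1.36). With the sow as a replicate block, adjusted p in limma's test was 0.635 for FOS A_72_P596714 in DP cells, 0.564 for EGR2 in colostrum and 0.823 for EGR2 in blood. The block changed no call. In the comparisons where the 2 genes were tested, the lowest adjusted p of any alternative was 0.263 for FOS (A_72_P205307, DP cells, normexp). For EGR2 it was 0.236 (blood, cyclic loess). Probes called in all, 0 as reported, came to 74 higher and 1127 lower in DP cells and 2 higher and 65 lower in CD8 SP cells with controls subtracted and 75th percentile scaling, and 1 higher and 1 lower for DP against CD8 SP cells in blood. With controls subtracted and quantile normalization they were 1 higher and 1 lower in DP cells. With normexp they were 1 higher in DP cells, 2 higher and 4 lower in CD8 SP cells, 3 lower in colostrum and 1 lower in blood. With the higher floor they were 2 higher and 2 lower in DP cells and 1 higher in blood, with the random block 1 lower in CD8 SP cells, and without the colostral CD8 SP sample of sow 2, 2 higher in CD8 SP cells (0 to 2 over the samples left out) and 1 lower in colostrum (0 to 1). Listed genes at least 2-fold higher in DP cells, 3 as reported, were 0 with controls subtracted and 75th percentile scaling and 1 with the higher floor, and those lower, 1 as reported, were 14 under 75th percentile scaling and 10 with controls subtracted as well. In CD8 SP cells the 4 higher became 2 with controls subtracted and 75th percentile scaling, and the 3 lower became 7 under 75th percentile scaling. Outside the comparison of colostral with blood CD8 SP cells, where FOS and EGR2 were not tested, no probe of either gene was called under any alternative. Signal over background limits EGR2, which was not above background in 5 of 8 samples.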
